A study of Homo sapiens with 12 samples.

Results

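SIGLEC15, ST6GAL1 and GRM4 are 3 genes whose transcripts rose to high levels when CAMA-1 breast cancer cells were exposed to the oestrogen receptor degrader fulvestrant. The 3 genes were chosen by that rise, so their differences between libraries with and without fulvestrant describe how they were picked and carry no test. They were 3 of 60656 rows in the count table, and all 3 were among the 11803 genes with enough reads to be tested. CAMA-1 is an established ER-positive luminal breast cancer cell line, used here as wild-type cells in RPMI-1640 medium with fetal bovine serum. Cells received the DMSO vehicle, abemaciclib at 100 nM, fulvestrant at 5 nM or both drugs, for 5 days. The doses are those of the labels, which do not restate them within the combination, and the study's methods give a higher default dose of abemaciclib for experiments where none is noted. Each of the 4 groups had 3 libraries of 3′ mRNA tags, described as independent biological replicates, with 3299119 to 5164667 reads assigned to genes. In a bulk library of this kind, fewer cells carrying a transcript and less transcript per cell cannot be told apart.

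Fulvestrant binds the oestrogen receptor and leads to its degradation, and abemaciclib inhibits the kinases CDK4 and CDK6 that phosphorylate the retinoblastoma protein. The 3 genes encode proteins of different kinds. ST6GAL1 is a Golgi sialyltransferase that caps the galactose ends of N-linked glycans with sialic acid in the α2,6 linkage. SIGLEC15 belongs to the Siglecs, immunoglobulin-like receptors that bind sialic acid. It signals through the adaptor DAP12, encoded by TYROBP, and is best known from osteoclasts and myeloid cells. GRM4 is a metabotropic glutamate receptor, known mainly from neurons, that couples to inhibitory G proteins and lowers cyclic AMP.

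The genes lie on separate chromosomes. In the GENCODE annotation of GRCh38, SIGLEC15 spans chr18:45825675-45844094 on the plus strand, ST6GAL1 spans chr3:186930325-187078553 on the plus strand and GRM4 spans chr6:34018643-34155622 on the minus strand. SIGLEC15 sits inside the span of EPG5, which runs on the opposite strand at chr18:45800581-45967329, but no exon of one overlaps an exon of the other. No other annotated gene overlapped ST6GAL1 or GRM4. The 250 bases before each start, as RefSeq gives them on GRCh38.p14, are shown because all 3 genes were chosen for a rise with fulvestrant. SIGLEC15 is given at chr18:45825425-45825674, ST6GAL1 at chr3:186930276-186930525 and the first of 2 RefSeq starts of GRM4 at chr6:34146088-34146337, each 5′ to 3′ on the strand of the gene, with motif matches in capitals.
SIGLEC15: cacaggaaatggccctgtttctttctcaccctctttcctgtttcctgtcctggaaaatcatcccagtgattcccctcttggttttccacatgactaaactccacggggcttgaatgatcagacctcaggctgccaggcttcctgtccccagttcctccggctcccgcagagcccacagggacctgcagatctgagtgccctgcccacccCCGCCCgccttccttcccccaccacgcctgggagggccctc
ST6GAL1: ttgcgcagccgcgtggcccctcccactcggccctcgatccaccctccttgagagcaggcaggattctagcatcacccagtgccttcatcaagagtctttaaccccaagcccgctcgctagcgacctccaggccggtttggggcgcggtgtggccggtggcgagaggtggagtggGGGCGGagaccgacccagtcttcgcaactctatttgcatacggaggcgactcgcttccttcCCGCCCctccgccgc
GRM4: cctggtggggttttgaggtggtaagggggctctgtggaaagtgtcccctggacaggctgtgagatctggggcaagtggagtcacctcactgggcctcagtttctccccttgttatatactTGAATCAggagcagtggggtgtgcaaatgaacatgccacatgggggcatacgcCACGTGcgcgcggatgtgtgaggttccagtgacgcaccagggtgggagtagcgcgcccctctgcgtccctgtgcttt

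The capitals mark GC boxes in the first pair of sequences and, in GRM4, an AP-1-like pattern followed by an E-box. Letters were searched on both strands. SIGLEC15 held a GC box (GGGCGG) at -41 and ST6GAL1 held GC boxes at -76 and -15, where each position is that of the first base counted back from the start, a motif present in 42.6% of 35116 promoters of the same length. The first GRM4 promoter held TGAATCA at -130. It matches the AP-1-like pattern TGANTCA, where N is any base, found in 6.57% of promoters. The E-box CACGTG, found in 6.34%, stood at -77. The second GRM4 start, at chr6:34110764-34111013, held none of the motifs searched. No window of the 3 genes held the oestrogen response element, GGTCA and TGACC with 3 unspecified bases between them, or its half-site GGTCA, which is part of the full element. These occurred in 0.0399% and 32.6% of all promoters. The forkhead motif TGTTTAC (2.98% of promoters), the E2F motifs TTTCGCGC or TTTGGCGC (0.968%) and the STAT motif TTCNNNGAA (6.57%) were not found either. No motif was therefore shared by all 3 genes in these windows. The RefSeq and GENCODE starts differ for GRM4 and ST6GAL1. Both GRM4 windows lie inside the GENCODE span of the gene, so the bases before its GENCODE start at chr6:34155622 were not searched. The ST6GAL1 window runs past the GENCODE start at chr3:186930325. The GC content was 60.0% for SIGLEC15, 65.6% for ST6GAL1 and 58.8% for the first GRM4 start, with 6, 22 and 9 CpG dinucleotides, beside medians of 58.0% and 11 over all promoters.

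Markers of the labelled cell type and of the oestrogen response were read first. All 10 luminal epithelial markers were tested, and their summed level ran from 5790 to 7950 CPM (tag counts scaled to a common library size) across libraries. TFF1 averaged 60.5 ± 2.87 CPM (SD, n = 3 in every group) in DMSO, 382 ± 13.9 with abemaciclib, 1.46 ± 0.686 with fulvestrant and 2.32 ± 0.51 with the combination. GREB1 (81.1, 127, 4.62 and 7.68 CPM in the same order), PGR (14.5, 25.9, 0.593 and 1.77) and CCND1 (617, 1327, 195 and 232) showed the same order of the 4 means. The transcript of the receptor itself, ESR1, averaged 93.3, 103, 95.3 and 81.5 CPM. Fulvestrant replicate 3 stood apart from its group, with chi-square values per gene of 9.72 and 15.3 against the other libraries of that group. Other pairs within a group had 1.87 to 5.59. The differences of the 3 genes from DMSO with fulvestrant and from fulvestrant with the combination are also given without it. Other results that rest on it, among them the interaction and the list and neighbour values, are printed with it included.

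SIGLEC15 stood at low levels without fulvestrant and far higher with it. Its 3 DMSO libraries read 3.56, 4.18 and 4.13 CPM, from 12, 22 and 20 reads. The abemaciclib libraries read 7, 5.52 and 3.79 CPM, and the lowest of them lay within the DMSO range. With fulvestrant the values were 61.3, 55 and 62 CPM, and with the combination 47.2, 59.1 and 61.6 CPM. These 6 libraries all lay far above the 6 libraries without fulvestrant, which the choice of the gene favours, while the fulvestrant and combination libraries overlapped each other. Group means were 3.96 ± 0.345, 5.44 ± 1.61, 59.4 ± 3.85 and 55.9 ± 7.71 CPM (SD, n = 3).

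ST6GAL1 rose in steps. The DMSO libraries read 7.12, 6.27 and 5.17 CPM (24, 33 and 25 reads), and the abemaciclib libraries read 23.8, 26.5 and 32.8 CPM. With fulvestrant they read 62, 66.6 and 47.9 CPM, and with the combination 65.9, 74.9 and 63.3 CPM. Every abemaciclib library therefore sat between the DMSO libraries and those that had received fulvestrant, with no overlap on either side, and the fulvestrant and combination libraries overlapped. All abemaciclib libraries lay above all DMSO libraries in 27% of the genes tested. The gap on the fulvestrant side is favoured by the choice of the genes for large rises. The group means were 6.19 ± 0.981, 27.7 ± 4.64, 58.8 ± 9.76 and 68 ± 6.05 CPM (SD, n = 3). The abemaciclib mean was 40.7% of the combination mean, against 9.72% for SIGLEC15 and 21.4% for GRM4.

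GRM4 had the same order of groups. Its DMSO libraries read 4.45, 3.23 and 3.31 CPM (15, 17 and 16 reads) and its abemaciclib libraries 7, 7.06 and 10.6 CPM. The fulvestrant libraries read 31.4, 36.4 and 29.2 CPM, and the combination libraries 39.7, 35.4 and 40.4 CPM. The abemaciclib libraries were again above every DMSO library and below every library with fulvestrant, and 1 fulvestrant library overlapped the combination range. As for ST6GAL1, the first arrangement was seen in 27% of the genes tested, and the choice of the genes favours the second. Means were 3.66 ± 0.684, 8.23 ± 2.07, 32.3 ± 3.7 and 38.5 ± 2.73 CPM (SD, n = 3).

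**Figure D1:**
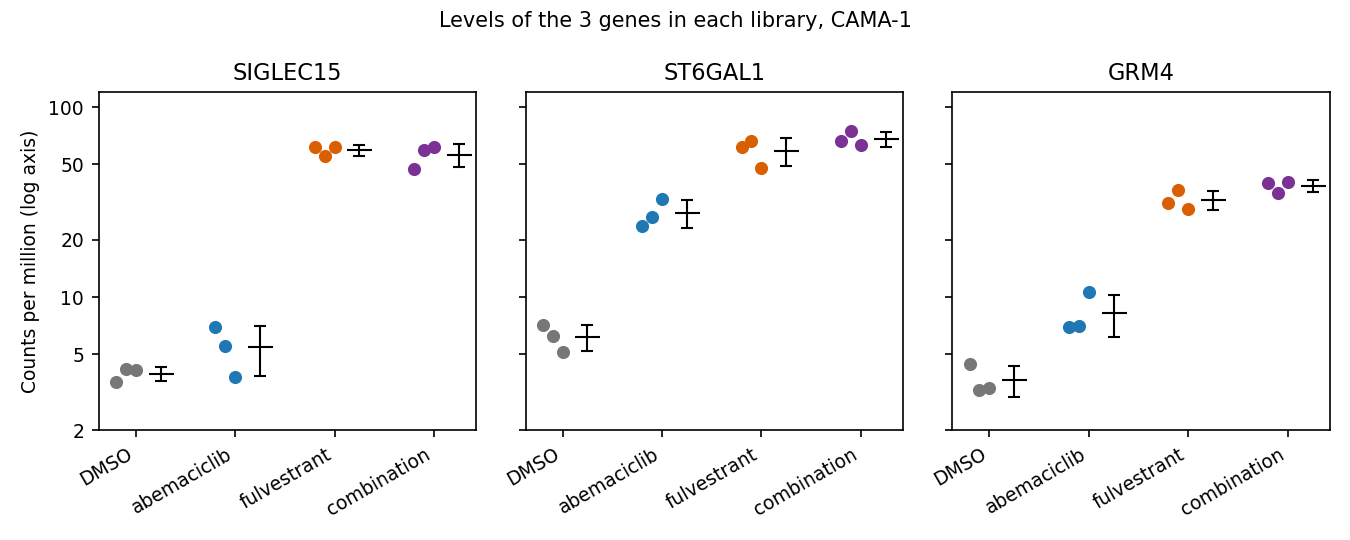
Levels in CPM of SIGLEC15, ST6GAL1 and GRM4 on a log axis in each of the 12 libraries, by treatment group. Coloured points are libraries, and the black bar and whiskers beside them are the mean and SD of 3 libraries. Libraries with fulvestrant lie between 29.2 and 74.9 CPM for the 3 genes, and the abemaciclib libraries of ST6GAL1 form a level of their own between 23.8 and 32.8 CPM.

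The differences that chose the genes are given here as a description. With fulvestrant against DMSO, SIGLEC15 was 14.8-fold higher (log2 fold change 3.88 ± 0.18, SE), ST6GAL1 9.56-fold (3.26 ± 0.18) and GRM4 8.94-fold (3.16 ± 0.2). Ordered by the fitted rise, they stood 5th, 22nd and 27th of the 11803 genes tested. In that contrast 25.3% of genes were higher and 25.7% lower at an adjusted p under 0.05. Leaving out fulvestrant replicate 3 gave 3.85, 3.39 and 3.23 for the 3 genes. With the combination against DMSO the log2 fold changes were 3.8, 3.47 and 3.42, and against abemaciclib alone they were 3.33 for SIGLEC15, 1.3 for ST6GAL1 and 2.24 for GRM4. Called genes with at least 10 CPM in fulvestrant were also listed by fitted rise. That limit is met through the group where the 3 genes are high, so places in this list only describe. FZD7, a Wnt receptor (3.78), PCAT14 (3.66) and SOCS2-AS1 (3.62) were among the first 10 places, beside SIGLEC15. PLA2G2A, a secreted phospholipase (3.6), COLEC12, a scavenger receptor of the collectin family (3.51), and RANBP3L (3.16) were also among the first 10 places, beside ST6GAL1 and GRM4.

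Abemaciclib alone was not used to choose the genes, although this contrast shares its DMSO libraries with those that were, and a choice of genes for large rises over DMSO favours low DMSO values. ST6GAL1 rose 4.5-fold (log2 fold change 2.17 ± 0.19, SE, edgeR adjusted p = 4.5e-10), and stood 85th by its fitted rise among the genes tested. GRM4 rose 2.26-fold (1.18 ± 0.25, edgeR adjusted p = 3.8e-04). SIGLEC15 did not pass the test, at 0.47 ± 0.26 with a 95% interval from -0.07 to 1 (edgeR adjusted p = 0.156), so a rise of up to 1 on the log2 scale lay within its interval. In this comparison 20.5% of all genes were higher and 20.7% lower, beside 2 of the 3 genes higher. Every abemaciclib library was above every DMSO library for ST6GAL1 and GRM4 and not for SIGLEC15, an arrangement seen in 27% of the genes tested. The SIGLEC15 estimate moved with single libraries, from 0.23 without abemaciclib replicate 1 (edgeR adjusted p = 0.573) to 0.65 without abemaciclib replicate 3 (edgeR adjusted p = 0.0566). Of the other genes just named for their rises with fulvestrant, FZD7 (2.44), RANBP3L (1.59), PCAT14 (1.5), PLA2G2A (1.38) and SOCS2-AS1 (0.93) also rose with abemaciclib, and COLEC12 (0.98, edgeR adjusted p = 0.0568) did not pass the test.

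Adding abemaciclib to fulvestrant gave no detectable further change in the 3 genes, in a contrast that shares its fulvestrant libraries with those that chose them. ST6GAL1 differed by 0.22 ± 0.13 on the log2 scale (95% interval -0.05 to 0.48, edgeR adjusted p = 0.548). GRM4 differed by 0.26 ± 0.14 (-0.03 to 0.55, edgeR adjusted p = 0.507) and SIGLEC15 by -0.08 ± 0.13 (-0.34 to 0.17, edgeR adjusted p = 0.854). The intervals do not show that the levels were equal. Few genes passed in this comparison, 0.297% higher and 1.63% lower. None of the 3 genes had all combination libraries above all fulvestrant libraries, an arrangement seen in 7.13% of genes. Without fulvestrant replicate 3 the genes called went from 35 to 185 higher and from 192 to 403 lower, and ST6GAL1, GRM4 and SIGLEC15 then stood at 0.08, 0.19 and -0.05, with edgeR adjusted p values of 0.776, 0.559 and 0.883. SIGLEC15 was at 0.02 without combination replicate 1.

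The fitted effect of abemaciclib in the presence of fulvestrant minus that in its absence, the interaction, was -1.95 ± 0.23 (SE) for ST6GAL1, -0.92 ± 0.29 for GRM4 and -0.55 ± 0.29 for SIGLEC15 on the log2 scale. This quantity equals the log2 fold change of the combination against abemaciclib minus that of fulvestrant against DMSO, both of which chose the genes. A choice for large rises with fulvestrant favours negative values, so the interaction is a description and carries no test.

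The same steps were of another shape in CPM. The ST6GAL1 mean was 21.5 ± 2.74 CPM (SE of the difference) higher with abemaciclib than with DMSO, and 9.2 ± 6.63 CPM higher with the combination than with fulvestrant. The GRM4 means differed by 4.57 ± 1.26 CPM without fulvestrant and by 6.2 ± 2.65 CPM with it. For SIGLEC15 the steps were 1.48 ± 0.951 and -3.5 ± 4.98 CPM. On the CPM scale, then, the step of ST6GAL1 was the smaller one in the presence of fulvestrant, while that of GRM4 was not smaller. Both steps with fulvestrant include fulvestrant replicate 3. The comparison uses the same 4 groups as the interaction, so the choice of the genes bears on it too. These CPM steps were not tested.

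**Figure D2:**
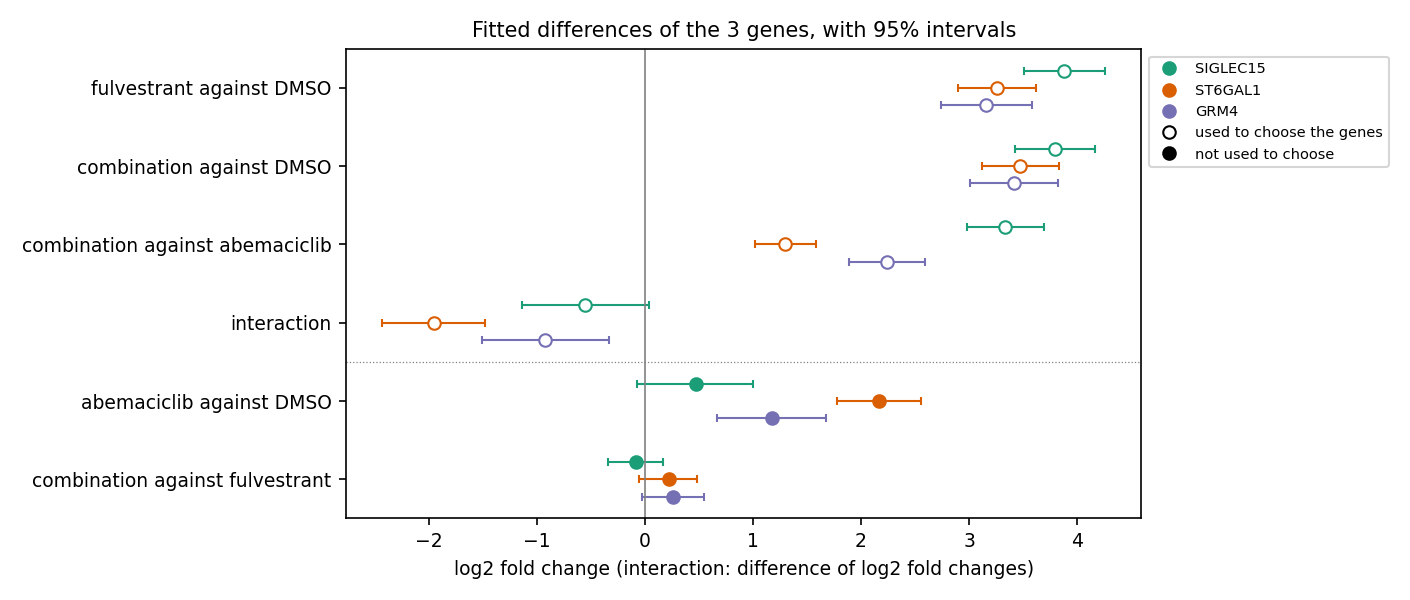
Fitted log2 fold changes of SIGLEC15, ST6GAL1 and GRM4 with 95% intervals in 5 comparisons, and the interaction as a difference of log2 fold changes. Open symbols are the comparisons that chose the genes, with the interaction that is built from them, and filled symbols are the others. With abemaciclib alone the order is ST6GAL1 at 2.17, GRM4 at 1.18 and SIGLEC15 at 0.47, and with the combination against fulvestrant the 3 intervals all include 0.

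Ratios of read counts within 1 library do not depend on scaling between libraries and describe the balance between the genes. Tag reads come from transcript ends, so a ratio was compared between groups and not read as a ratio of molecules. The ratio of ST6GAL1 to SIGLEC15 reads was 2, 1.5 and 1.25 in DMSO, 3.4, 4.8 and 8.67 with abemaciclib, 1.01, 1.21 and 0.772 with fulvestrant and 1.4, 1.27 and 1.03 with the combination. All abemaciclib values lay above all others. The mean log2 ratio was 1.75 higher with abemaciclib than with DMSO (exact two-sided permutation p = 0.1, the smallest that 3 against 3 libraries allow, and 0.3 after adjustment over 6 ratio tests). The ratio of ST6GAL1 to GRM4 was 3.4, 3.75 and 3.1 with abemaciclib against 1.6, 1.94 and 1.56 with DMSO, a difference of 1.01 on the log2 scale (exact permutation p = 0.1, adjusted 0.3). GRM4 to SIGLEC15 differed by 0.74 between the same groups (exact permutation p = 0.2, adjusted 0.3). Between the combination and fulvestrant the 3 ratios differed by 0.31, 0.35 and -0.04 on the log2 scale (exact permutation p = 0.2, 0.3 and 0.9), in the order ST6GAL1 to SIGLEC15, GRM4 to SIGLEC15 and ST6GAL1 to GRM4. The design could not reach an exact p under 0.05 for any of these ratios.

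**Figure D3:**
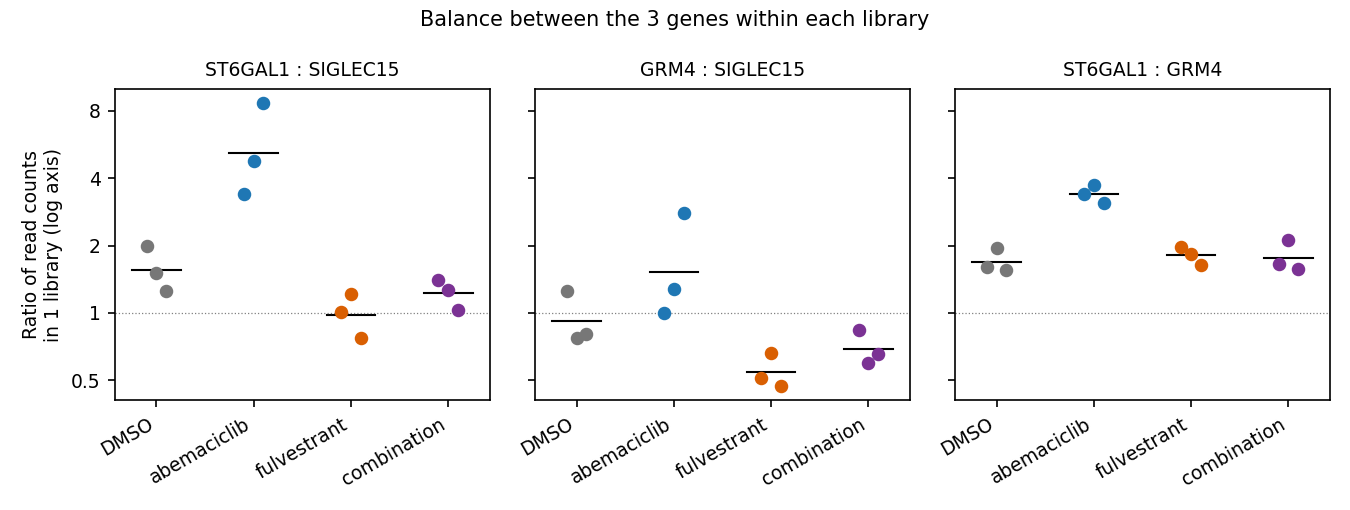
Ratio of the read counts of each pair of genes within each library, on a log axis, by treatment group. Points are libraries and bars are geometric means of 3 libraries. The ST6GAL1 to SIGLEC15 ratio lies between 3.4 and 8.67 with abemaciclib and at or below 2 in the other 9 libraries.

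The fitted spread of the genes between replicates lay near the trend over all genes. The biological coefficient of variation was 0.093 for SIGLEC15, 0.1 for ST6GAL1 and 0.09 for GRM4. The fitted trend at the same abundance was 0.094, 0.091 and 0.101. The fit draws each gene toward this trend, so the closeness does not show that their own spread was typical. For SIGLEC15 the SD within a group ran from 6.47% to 29.6% of the mean CPM. The same range was 8.9% to 16.7% for ST6GAL1 and 7.09% to 25.1% for GRM4. These percentages were not compared with those of other genes. Across the 12 libraries the log2 CPM of GRM4 had a Pearson correlation of 0.949 with SIGLEC15 and 0.95 with ST6GAL1, and SIGLEC15 and ST6GAL1 had 0.849. Many other genes were closer. By correlation with SIGLEC15, GRM4 stood 122nd and ST6GAL1 797th among the other genes. By correlation with ST6GAL1, GRM4 stood 247th and SIGLEC15 1273rd, and by that with GRM4, ST6GAL1 stood 173rd and SIGLEC15 180th. These values are descriptions. All points share the same 12 libraries in 4 treatment groups, and most of each correlation is the gap between groups.

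Genes with the most similar pattern differed between the 3. For SIGLEC15 they were KCNMA1, a calcium-activated potassium channel (Pearson r of log2 CPM 0.994 over 12 libraries), MARCHF6, a ubiquitin ligase of the endoplasmic reticulum (0.99), the retinoid X receptor RXRA (0.989), ARHGEF3 (0.988) and ALDH4A1 (0.988). KCNMA1 averaged 43.2 CPM with DMSO, 46.3 with abemaciclib and 104 with fulvestrant, while ALDH4A1 averaged 43.1, 56.7 and 185 CPM. For ST6GAL1 they were PIK3IP1, an inhibitor of phosphoinositide 3-kinase (0.996), TULP4 (0.993), the epoxide hydrolase EPHX2 (0.99), the Wnt acyltransferase PORCN (0.989) and IGSF3 (0.989). PIK3IP1 averaged 6.92, 26.4, 52.9 and 61 CPM in DMSO, abemaciclib, fulvestrant and the combination, which are close to the values of ST6GAL1. For GRM4 they were GALNT10, which starts mucin-type O-glycans (0.989), ATXN1 (0.988), CREBRF (0.987), COLEC12 (0.986) and the spermine acetyltransferase SAT1 (0.982).

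Sialyltransferases other than ST6GAL1 were called in both directions. Of 20 genes listed, 6 were tested, and of the 5 others 1 was higher and 2 lower with fulvestrant. The counts of this and the following lists stand beside 25.3% of all genes higher and 25.7% lower with fulvestrant, and 20.5% and 20.7% with abemaciclib. ST3GAL2, which adds sialic acid in the α2,3 linkage, rose from 12.8 to 19.2 CPM (log2 fold change 0.56 ± 0.17, edgeR adjusted p = 0.00623). ST3GAL1, an enzyme of the same linkage that acts on O-glycans, fell from 51.6 to 29 CPM (-0.83 ± 0.15, edgeR adjusted p = 2.7e-05). ST8SIA6, which links sialic acid to sialic acid, fell from 2.98 to 0.228 CPM (-3.46 ± 0.74, edgeR adjusted p = 3.1e-04). That rests on 41 reads over the DMSO libraries and 3 over the fulvestrant libraries, a ratio of rates of 0.0791 with an exact 95% counting interval from 0.0157 to 0.248. ST3GAL4 (-0.48) and ST3GAL5 (0.24) did not pass. With abemaciclib and with the combination against fulvestrant none of these 5 passed. The median over the 5 was -0.48 with fulvestrant, beside 0.01 over all genes.

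Genes that supply or remove sialic acid were called higher where they were called. Of 11 tested, 4 were higher and 0 lower with fulvestrant (all genes 25.3% and 25.7%), with a median of 0.11, and 5 were higher and 0 lower with abemaciclib (20.5% and 20.7%), with a median of 0.25. Those higher with fulvestrant were SLC35A1, which carries activated sialic acid into the Golgi (19.2 to 45.9 CPM with fulvestrant, log2 fold change 1.24), SLC17A5, the lysosomal sialic acid exporter (1.2), CASD1, which O-acetylates sialic acid (1.2), and the lysosomal sialidase NEU1 (0.27). With abemaciclib the same 4 genes rose, by 0.99, 1.01, 0.99 and 0.46, and SIAE, a sialic acid esterase, rose by 0.73. The enzymes that make and activate sialic acid, GNE (0.32), NANS (-0.07), NANP (-0.3) and CMAS (-0.25), did not pass with fulvestrant.

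The N-glycan list holds enzymes that build the glycans ST6GAL1 acts on, and the proteases SPPL3 and BACE1. Of 17 tested, 7 were higher and 1 lower with fulvestrant (all genes 25.3% and 25.7%), the proteases among the 7, and 4 were higher and 2 lower with abemaciclib, where the share higher was near the 20.5% of all genes. B4GALT1, which adds the galactose that ST6GAL1 caps, rose from 166 to 369 CPM with fulvestrant (log2 fold change 1.15 ± 0.1, edgeR adjusted p = 2.1e-10) and to 334 CPM with abemaciclib (1.01 ± 0.1, edgeR adjusted p = 4.7e-09). SPPL3 (0.55), a protease that cleaves glycosyltransferases, the mannosidase MAN2A2 (0.53) and the branching enzyme MGAT4B (0.51) also rose with fulvestrant. BACE1, a protease reported to cleave ST6GAL1, rose from 25 to 34.6 CPM (0.47 ± 0.14, edgeR adjusted p = 0.00671). The gene that was lower was MAN1A2 (-0.22, edgeR adjusted p = 0.0354). BACE1 and MAN1A2 were singled out after their values were seen.

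Mucin-type O-glycans carry the sialylated structure that SIGLEC15 is known to bind. The list of genes that assemble these glycans held no sialyltransferase, so its counts do not measure that structure. Among the sialyltransferases, the ST6GALNAC genes had too few reads to be tested, at most 17 in any library. Of 11 tested genes of the O-glycan list, 7 were higher and 3 lower with fulvestrant (all genes 25.3% and 25.7%), and 4 and 3 with abemaciclib (20.5% and 20.7%). GALNT10 rose from 82.8 to 303 CPM (log2 fold change 1.87 ± 0.08, edgeR adjusted p = 8.2e-17). The branching enzyme GCNT1 (1.45), GALNT2 (1.2) and C1GALT1 (0.74), which extends the first sugar, rose as well. GALNT6, another initiating enzyme, was the 1 gene of the list called with the combination against fulvestrant, and it was lower there (-0.33, edgeR adjusted p = 0.0448). It was singled out after its values were seen, and no gene of the list was lower in this comparison in 14 of 20 alternative analyses. Medians with fulvestrant were 0.16 for the N-glycan list and 0.58 for the O-glycan list, beside 0.01 for all genes.

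SIGLEC15 was the one Siglec with enough reads to be tested. The list held 17 Siglecs and adaptors, 16 of them fell short of the test, and 11 had 0 reads in all 12 libraries. The most reads in any library for an untested gene were 7, for the adaptor HCST. TYROBP, which encodes the adaptor that SIGLEC15 uses, had at most 1 read. Markers of the cells in which SIGLEC15 is best known were read beside it. None of 10 myeloid markers was tested, their sum was at most 1.98 CPM in any library, and CD163, CD68 and FCGR3A had 0 reads throughout. Of 10 osteoclast markers only NFATC1 was tested, and ACP5, ATP6V0D2, CALCR and OCSTAMP had 0 reads. The osteoclast sum ran from 27.7 to 32.4 CPM with DMSO, 21.7 to 26.2 with abemaciclib, 21.7 to 29.2 with fulvestrant and 26.1 to 35.7 with the combination. NFATC1, a transcription factor not limited to osteoclasts, made up most of it, at means of 27.4, 21.7, 22.4 and 27.8 CPM. The protease CTSK averaged 0.399, 0.803, 1.89 and 1.9 CPM in the same order, from at most 12 reads in a library. Other markers of the list went the other way. TNFRSF11A averaged 0.952, 0.347, 0 and 0.367 CPM, and MMP9 averaged 1.59, 0.509, 0.44 and 0.324 CPM. The part of these genes in the SIGLEC15 result was not tested. None of 10 B cell markers was tested, with a sum of at most 1.19 CPM, and 2 of 10 fibroblast markers were (17.8 to 36.9 CPM). A gene at 0 in a table of this kind may also be one whose reads were assigned elsewhere.

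GRM4 was likewise the one metabotropic glutamate receptor with reads. The 7 others had at most 2 reads in any library, and 5 of them had 0 throughout. Of 18 ionotropic receptor genes, GRIK3 and GRIK4 were tested. GRIK3, a kainate receptor subunit, fell from 4.27 to 1.14 CPM with fulvestrant (log2 fold change -1.87 ± 0.43, edgeR adjusted p = 6.5e-04), and GRIK4 did not pass (-0.15). Of 10 neuronal markers 1, MAP2, was tested. The summed level of the neuronal list ran from 4.37 to 6.23 CPM with DMSO, 12.4 to 16.6 with abemaciclib, 19.6 to 22.3 with fulvestrant and 27.5 to 30.8 with the combination. MAP2 made up most of the sum and its rise, at means of 2.89, 13.1, 18.9 and 26.9 CPM in that order. SYP averaged 1.25, 0.505, 1.11 and 1.16 CPM and did not rise, and NEFL and SLC17A7 had 0 reads. The part of MAP2 in the GRM4 result was not tested.

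Genes that supply or move glutamate were mostly lower with fulvestrant. Of 10 tested, 0 were higher and 8 lower (all genes 25.3% and 25.7%), with a median of -0.78. With abemaciclib, where GRM4 was also higher, 1 was higher and 3 lower, near the 20.5% and 20.7% of all genes. SLC7A11, the subunit of the exchanger that releases glutamate for cystine, fell from 7.02 to 1.18 CPM (log2 fold change -2.46 ± 0.45, edgeR adjusted p = 4.4e-05). SLC1A5, a glutamine carrier, fell from 154 to 42.7 CPM (-1.85 ± 0.11, edgeR adjusted p = 3.7e-14), and was lower again with the combination than with fulvestrant (-0.5, edgeR adjusted p = 0.0204). The glutamate transporter SLC1A2 (-1.71) and glutamine synthetase, GLUL (-1.13), fell too.

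The Gi and cyclic AMP list covers the steps downstream of GRM4. Of 16 tested, 3 were higher and 4 lower with fulvestrant, close to the 25.3% and 25.7% of all genes, 2 and 5 were with abemaciclib (20.5% and 20.7%), and none passed with the combination against fulvestrant. ADCY2, an adenylyl cyclase, rose from 7.89 to 41.1 CPM with fulvestrant (log2 fold change 2.37 ± 0.17, edgeR adjusted p = 3.0e-12), while ADCY3, another, fell from 11.8 to 2.58 CPM (-2.21 ± 0.29, edgeR adjusted p = 2.8e-07). The phosphodiesterase PDE4A (-1.95) and the kinase subunit PRKAR1B (-1.43) fell. The median was -0.08.

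**Figure D4:**
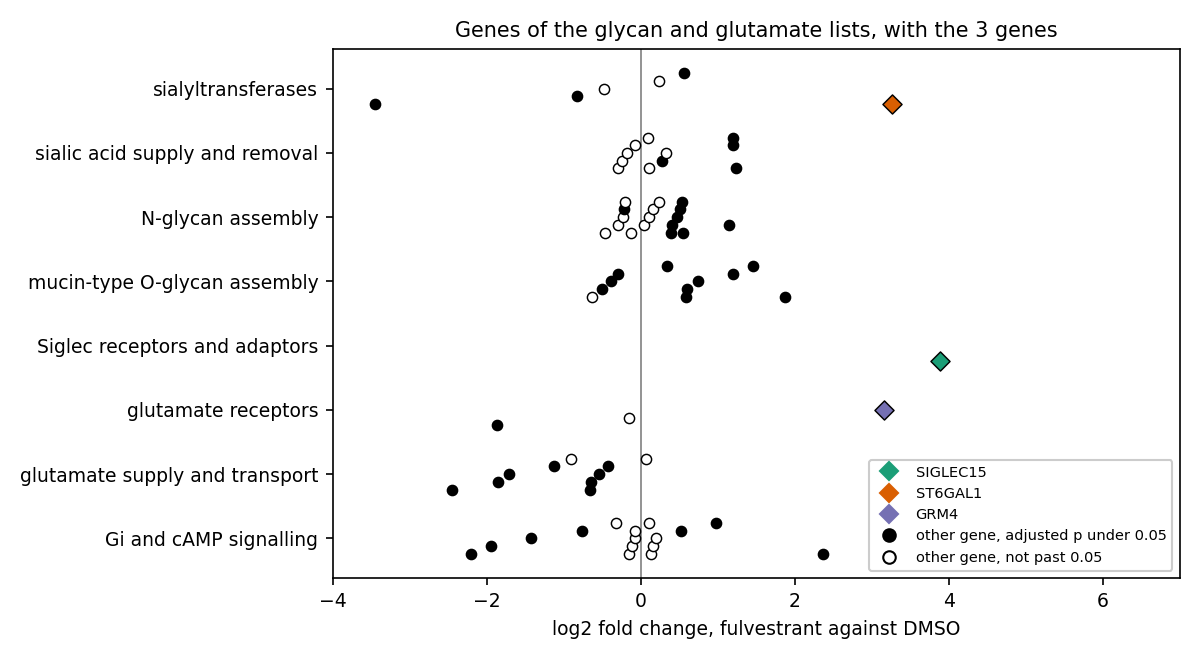
Log2 fold change of every tested gene of 8 lists with fulvestrant against DMSO. Diamonds are SIGLEC15, ST6GAL1 and GRM4, filled circles are other genes with an adjusted p under 0.05 and open circles are other genes that did not pass. The diamonds were chosen for large rises and lie at 3.16 to 3.88, right of every other listed gene. ADCY2 is the highest of the others at 2.37, and 8 of the 10 glutamate supply genes are filled circles left of 0.

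The nearest tested genes on the chromosome went both ways with fulvestrant. Their rises were smaller than those of the 3 genes, which a choice of the 3 for large rises favours. Over the 18 neighbours, 3 on each side of each gene, 7 were higher, 6 lower and 5 not called with fulvestrant, beside 25.3% and 25.7% of all genes, and their log2 fold changes ran from -1.94 to 2.29. Around SIGLEC15, SLC14A1, a urea transporter whose start lies 138.6 kb away, rose from 0.98 to 5.25 CPM (log2 fold change 2.29, edgeR adjusted p = 0.00033), SETBP1 rose by 1.95 and EPG5, the gene whose span holds SIGLEC15, rose from 6.04 to 14.2 CPM (1.24, edgeR adjusted p = 0.00012). PSTPIP2 (0.08), ATP5F1A (-0.04) and PIK3C3 (0.27) did not pass. SLC14A1 was lower with the combination than with fulvestrant (-1.86, edgeR adjusted p = 0.0275), which SIGLEC15 was not called to be. Around ST6GAL1, RFC4, a subunit of the DNA clamp loader (-1.94), RPL39L (-1.19) and the transcriptional repressor BCL6 (-1.03) fell, while the helicase EIF4A2 (0.73) and LPP (0.41) rose. RPS20P14 (-0.95) is a pseudogene whose reads may come from its parent gene. Around GRM4, HMGA1, an architectural chromatin protein, fell by 0.76 and UQCC2 by 0.6, NUDT3 (0.73) and SMIM29 (0.46) rose, and LEMD2 (-0.07) and ITPR3 (-0.11) did not pass.

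**Figure D5:**
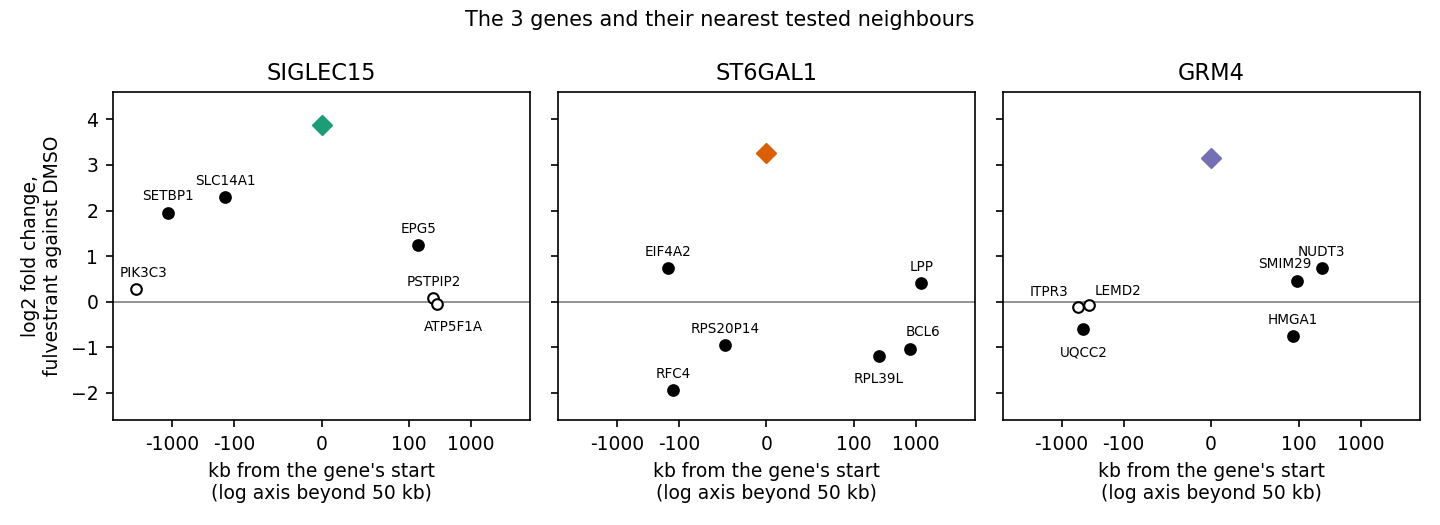
Log2 fold change with fulvestrant against DMSO of SIGLEC15, ST6GAL1 and GRM4 (diamonds) and of the 3 nearest tested genes on each side, against the distance between annotated starts in kb along the chromosome, on a log axis beyond 50 kb. Filled circles have an adjusted p under 0.05 and open circles did not pass. The neighbours lie between -1.94 and 2.29, below all 3 diamonds, which were chosen for large rises.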

How the data were processed

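The authors deposited raw counts per gene for 12 CAMA-1 libraries made with the QuantSeq 3′ mRNA kit (forward). Per their methods, reads were trimmed with BBDuk, aligned to hg38 with STAR and counted with featureCounts 2.0.1 on GENCODE genes. Whether the counting used strand is not given in the sources used here. The study's methods mention no molecular identifiers. The exact counting interval of ST8SIA6 covers counting error only. The SEs, intervals and tests of the edgeR fit also use the spread between libraries. Of 60656 rows, 44 had no gene name and held 0 reads. Genes were kept by filterByExpr (minimum count 10, minimum total 15), which left 11803, and scaled with TMM factors, which also entered the CPM. The main test was the robust quasi-likelihood F test of edgeR 4.0.16 (R 4.3.3) on all 12 libraries with 4 group means, two-sided, with Benjamini-Hochberg adjustment over the 11803 genes and a threshold of 0.05. DESeq2 1.42.0 was an alternative (the authors used another version of it), as were other scalings and filters, the groups compared alone, a replicate block and leaving out each library. The interaction had been planned as a test and is given without one, since it is built from contrasts that chose the genes. The scripts were tested on simulated counts. Pearson correlations used log2 CPM with a prior count of 2.

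The 3 genes, the lists and the tests were chosen with earlier results of these data known. Genes named are the 3 genes, 5 oestrogen response genes, up to 4 called genes of each list with the largest change with fulvestrant plus tested relatives of the 3, the 5 genes most correlated with each, the 3 nearest tested genes on each side, and the 10 largest rises at 10 CPM or more, of which 1 is not reported here. Lists were written by hand from general knowledge. Positions come from GENCODE on GRCh38, which is a later release than the authors counted on, and promoter sequences from RefSeq on GRCh38.p14, where all 3 genes matched.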

Additional observations from a re-analysis of the deposited data

How the results depend on the processing

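SIGLEC15, ST6GAL1 and GRM4 were refitted under 20 alternatives (19 for the interaction, which needs all 4 groups), and all but 1 of the resulting values kept direction and side of the threshold or stayed within the replicate spread. The combination against fulvestrant difference of SIGLEC15 ranged from -0.17 to 0.02 and turned positive, at 0.02, without combination replicate 1. With abemaciclib, ST6GAL1 stayed between 2.04 and 2.27 and GRM4 between 0.97 and 1.31 over all 20 alternatives. The counts of genes called with the combination against fulvestrant, 35 higher and 192 lower, were 20 higher with DESeq2, 17 and 74 with at least 10 counts in every library, and 6 and 119 with only the groups compared. With single libraries left out, genes higher ranged from 7 to 185 and genes lower from 139 to 403, the highest without fulvestrant replicate 3. Genes higher stood at 7 to 23 without DMSO replicate 2, abemaciclib replicate 3, fulvestrant replicate 1 or 2, or any combination library. The cause was not tested. Of 840 list counts over the alternatives, 776 stayed within 1.5 times.

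Same-numbered libraries showed little shared deviation (correlation of deviations -0.215 to 0.119 over 18 pairs, 2 of them over 0.1). No strong effect of replicate number was seen, though this does not show that the libraries were unpaired. With a replicate block the interaction was -1.96 for ST6GAL1, -0.92 for GRM4 and -0.56 for SIGLEC15, no call of the 3 genes changed, and 27 genes were higher and 176 lower with the combination against fulvestrant. Depth limited SIGLEC15 and GRM4 most in DMSO, where a library held 12 to 22 reads of either. Genes at the foot of the table, among them nearly all Siglecs and glutamate receptors, could not be compared at this depth.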
